A study of Mus musculus with 132 samples.

Results

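Interferon response genes are genes that cells raise when type I or type II interferon reaches them. A list of 39 of them was looked up by symbol, and 38 were found among the 23412 genes of the deposited table of normalised counts. Ifi27 is not analysed here. By role the 38 genes were 3 sensors of foreign nucleic acid, 5 transcription factors, 19 antiviral effectors, 7 interferon-inducible GTPases, 3 genes of antigen processing and 1 feedback inhibitor.

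The samples were cortical bone of the tibia from 22 female C57Bl/6J mice aged 10 weeks, all of 1 genotype. The left tibia of each mouse was compressed in vivo to a peak of 9 N at 4 Hz for 1200 cycles a day (the loaded limb), and its right tibia served as the control limb. Limbs were collected 1 h (5 mice), 3 h (4 mice) or 24 h (4 mice) after 1 bout, on day 8 in mice that had 5 days of loading (5d, 5 mice), or 24 h after the last of 7 daily bouts (7d, 4 mice). Each limb gave 3 libraries, of the metaphyseal shell, the proximal diaphysis and the mid-diaphysis, 6 per mouse in all, of 3′ mRNA-seq, an assay that reads mostly the 3′ end of each transcript. Every control limb came from a mouse that was loaded on the other side, so what reaches both limbs is not seen in a loaded minus control difference. The groups of mice that differ in time are different animals.

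Interferons are secreted when a cell senses viral nucleic acid or other danger signals. They bind receptors that act through JAK kinases and transcription factors, among them STAT2 and IRF9, which act at interferon-stimulated response elements in promoters, while interferon gamma acts at gamma-activated sites. In bone, interferons are known above all as brakes on osteoclast formation, and the blood-forming cells of the marrow respond to them strongly.

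To show what such elements look like in these genes, promoters of the 4 members with the smallest p between mice that hold the core GAAANNGAA are printed from RefSeq (GRCm38.p6), each with 250 bases before and 50 after the start, 5′ to 3′ on the strand of the gene, with every match to GAAANNGAA on either strand in capitals. On the opposite strand the core reads TTCNNTTTC.
Isg15, chr4:156200769-156201068, minus strand: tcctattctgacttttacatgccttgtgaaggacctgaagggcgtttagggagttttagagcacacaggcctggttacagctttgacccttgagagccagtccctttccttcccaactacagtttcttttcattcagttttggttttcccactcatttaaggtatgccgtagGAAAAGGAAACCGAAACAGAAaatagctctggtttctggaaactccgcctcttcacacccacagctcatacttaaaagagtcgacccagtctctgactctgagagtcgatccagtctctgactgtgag
Ifit1, chr19:34640639-34640938, plus strand: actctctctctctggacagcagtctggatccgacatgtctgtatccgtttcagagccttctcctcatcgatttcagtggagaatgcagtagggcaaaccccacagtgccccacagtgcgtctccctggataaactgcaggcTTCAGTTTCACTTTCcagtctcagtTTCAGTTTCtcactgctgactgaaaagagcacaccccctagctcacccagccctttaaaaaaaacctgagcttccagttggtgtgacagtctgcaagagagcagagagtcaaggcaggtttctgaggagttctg
Bst2, chr8:71537423-71537722, minus strand: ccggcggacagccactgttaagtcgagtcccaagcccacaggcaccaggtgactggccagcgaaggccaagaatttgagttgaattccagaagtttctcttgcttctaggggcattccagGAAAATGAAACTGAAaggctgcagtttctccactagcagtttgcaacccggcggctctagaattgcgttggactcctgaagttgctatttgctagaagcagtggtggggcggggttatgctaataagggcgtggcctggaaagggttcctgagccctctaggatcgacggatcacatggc
Ifitm3, chr7:141010695-141010994, minus strand: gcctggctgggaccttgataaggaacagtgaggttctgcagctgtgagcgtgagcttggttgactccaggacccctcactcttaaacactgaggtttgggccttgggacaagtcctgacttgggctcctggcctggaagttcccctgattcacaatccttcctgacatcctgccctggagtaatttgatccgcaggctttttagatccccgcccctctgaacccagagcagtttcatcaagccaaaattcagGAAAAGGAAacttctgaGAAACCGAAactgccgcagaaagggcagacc
In Isg15, which encodes a ubiquitin-like protein, 3 overlapping matches start 78, 72 and 66 bases before the transcription start. In Ifit1, an effector that binds viral RNA, 3 matches lie on the opposite strand, 2 that overlap and, nearest to the start, 1 whose first base is 84 bases before it. Bst2, which encodes tetherin, has 2 overlapping matches at 130 and 124 bases before the start. Ifitm3, an effector that blocks viral entry, has 2 matches that begin at bases 3 and 20 of the transcribed part.

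The same search was made in all promoters of the table. Of the 31 members with a promoter entry, 17 (54.8%) held GAAANNGAA in at least 1 promoter, against 2638 of all 27025 gene symbols (9.76%). TTCNNNGAA, the gamma-activated site, was found in 11 of the 31 members (35.5%) and in 2582 of the 27025 symbols (9.55%), with Bst2 and Ifitm3 holding 1 match each. Of the members that the results below turn on, Oasl2 and Ifi47 held neither motif, and Isg20 held TTCNNNGAA in 1 of its 3 promoters. These are matches of letters, counted on both strands, and not measured binding.

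A set of 7 libraries stood apart, and results that rest on them are given with and without them. In 4 mid-diaphysis libraries (loaded in mouse 2 and control in mouse 3 at 1 h, and loaded in mice 4 and 5 of 5d) the summed level of 4 mesothelial-type markers was 1074 to 1150, against at most 48.6 in the other libraries. The other 3 were control libraries with few genes or much Col1a1, the type I collagen gene. The proximal diaphysis of mouse 3 at 3 h had reads in 7915 genes, that of mouse 2 of 7d in 8296 genes with 36.5% of its normalised count in Col1a1, and the mid-diaphysis of mouse 4 of 7d in 9720 genes with 28.9% in Col1a1. Library totals ran between 290066 and 5404933 reads, with medians of 1887078 for the shell, 1607413 for the proximal diaphysis and 1219828 for the mid-diaphysis. Osteoblast markers were high in every mouse (summed means over its 6 libraries of 4933 to 20308), and so were neutrophil markers (17805 to 48056), so RNA of blood-forming cells was present beside that of bone.

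The interferon ligands themselves were hardly read. Of 9 ligand genes, 7 had no read in any library (Ifna1, Ifna2, Ifna4, Ifnb1, Ifnl2, Ifnl3 and Ifne), and a count of 0 over all libraries allows a share of up to 0.0124 in 10⁶ reads. Ifng, the gene of interferon gamma, had 25 reads in 12 libraries, and Ifnk had 3 reads in 2. The receptors and kinases were read throughout. Median normalised counts over all libraries were 72.9 for Ifnar1 and 146 for Ifnar2, the subunits of the type I receptor, 349 and 49.4 for the interferon gamma receptor genes Ifngr1 and Ifngr2, and 426 for the kinase gene Jak1. Intervals and limits of this kind cover counting error only.

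The members differed widely in level. A normalised count here is the number of reads divided by the size factor of the library, and it is not scaled to transcript length, since 3′ reads do not grow with length. Medians over all libraries ranged between 4.96 and 28.1 for the 3 sensors, 30.3 and 184 for the 5 transcription factors, 1.44 and 408 for the 19 effectors, 5.49 and 71.8 for the 7 GTPases and 32.0 and 85.8 for the 3 antigen processing genes, and the median of Usp18, the feedback inhibitor that removes Isg15 from proteins, was 7.04. The highest medians were those of Ifitm3 (408), Rsad2 (405), which encodes the radical enzyme viperin, Irf8 (184), a transcription factor of the myeloid lineage, and Irf1 (144), a transcription factor induced by interferon gamma. At the low end stood Oas1a (1.44), a sensor-enzyme gene of the oligoadenylate synthetase family, Mx2 (2.16), Mx1 (2.47) and Oasl1 (3.23). Reads were found in every library for 11 of the 38 members, and 11 had a median under 10, where 1 read moves the value by a large share. In the annotation 12 members overlap a gene on the other strand and 6 overlap one on the same strand (Gbp7, Ifi47, Igtp, Irf8, Irf9 and Rtp4), so reads of these could be shared with a neighbour. Ifit1 lies on chr19:34640871-34650009, Isg20 on chr7:78913424-78920396, Oasl2 on chr5:114896936-114912234, Isg15 on chr4:156199424-156200818, Bst2 on chr8:71534255-71537456, Ifitm3 on chr7:141009586-141010770, Ifi47 on chr11:49076587-49096974 and Ifih1 on chr2:62595798-62646255 (mm10, all protein-coding).

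The first comparison asked whether loading changed these genes in the loaded limb. None of the 38 members passed the threshold (adjusted p under 0.05, limma, Benjamini-Hochberg over 13031 genes) in any of 15 comparisons of loaded with control limbs within a segment and time, or in any of the 5 averages over segments, and edgeR on the reads also called 0 in each. Few genes of any kind were called there. The share of all genes called by limma was 0 in 14 of the 15 comparisons and 0.00767% in the proximal diaphysis at 1 h, and in the averages it was 0.00767% at 1 h, 0.046% at 7d and 0 at the other times. By edgeR it was 0.00767% in the shell at 5d and in the proximal diaphysis at 7d and 0 in the other 13 comparisons, and in the averages 0.0153% at 1 h, 0 at 3 h, 0.0153% at 24 h, 0.13% at 5d and 0.975% at 7d. At an unadjusted p under 0.05, 27 of the 570 tests of members in the 15 comparisons passed (4.74%), against 4.97% of the tests of all genes. By segment, the members under 0.05 unadjusted numbered 2, 4, 1, 0 and 1 in the shell at 1 h, 3 h, 24 h, 5d and 7d, where the shares of all genes were 2.66%, 4.06%, 1.8%, 2.33% and 7.26%. In the proximal diaphysis they numbered 2, 5, 0, 0 and 7, beside 4.51%, 9.24%, 1.7%, 2.46% and 16% of all genes, and in the mid-diaphysis 0, 0, 0, 4 and 1, beside 3.51%, 2.78%, 1.93%, 7.35% and 6.9%. In the averages over segments they numbered 0, 1, 2, 1 and 3, beside 3.88%, 7.64%, 3.08%, 5.67% and 11.7%. One member is 2.63% of the 38, so most of these counts lie near the share of all genes. By edgeR the members under 0.05 unadjusted numbered 0 to 2 in each comparison, with exceptions at 5d and 7d. Outside the exceptions the shares of all genes ran between 0.79% and 8.56%. In the mid-diaphysis at 5d there were 3 members (7.89%), beside 6.04% of all genes. At 7d there were 6 (15.8%) in the proximal diaphysis, beside 14.5% of all genes, and 4 (10.5%) in the average, beside 14.01%.

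**Figure D1:**
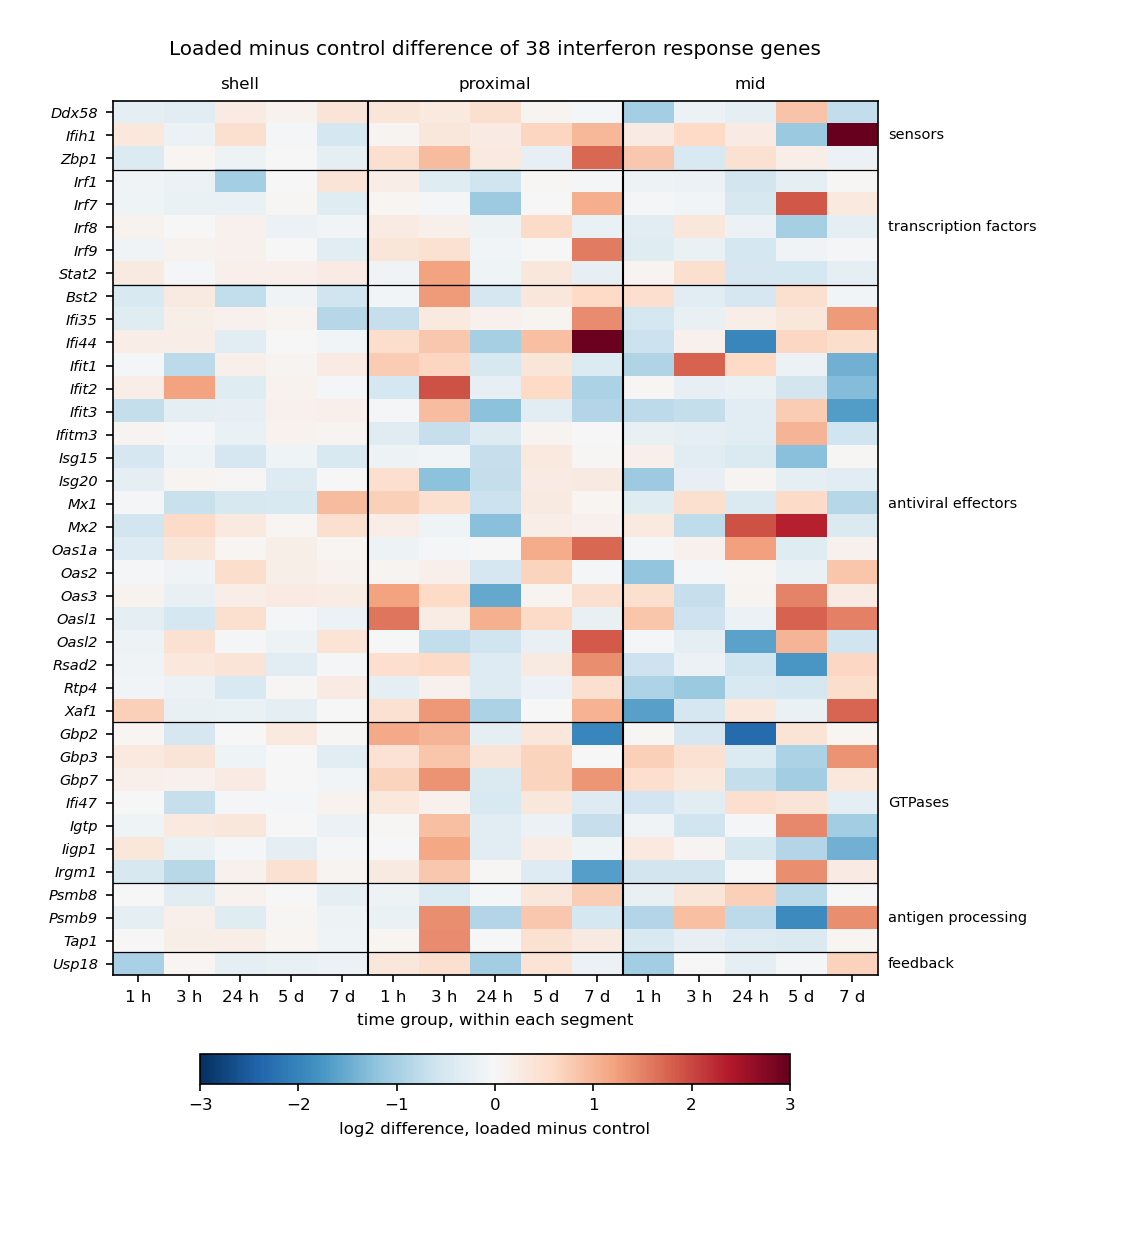
Log2 difference, loaded minus control, of each of the 38 members (vertical axis, grouped by role) in the 3 segments at 5 times (horizontal axis), the mean over the 4 or 5 mice of a time. Red is higher and blue lower in loaded limbs, on a scale that ends at 3 in either direction. The shell is pale throughout, with differences between -1.02 and 1.21, and the mid-diaphysis is the most variable, with Ifih1 at 7d the highest at 3.33.

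In the metaphyseal shell the members of loaded and control limbs were close. The median member difference on the log2 scale was -0.09 at 1 h, -0.05 at 3 h, 0.02 at 24 h, 0.02 at 5d and -0.05 at 7d, and the median over all genes lay between -0.02 and 0.02. The 95% interval of the difference lay within 1 log2 unit of 0, a 2-fold change, for 26 of the 38 members at 1 h, 19 at 3 h, 24 at 24 h, 29 at 5d and 26 at 7d. In single mice the mean difference over the 38 members lay between -0.30 and 0.18. A p that misses the threshold does not show that the limbs were alike, and for the other members larger differences lie within the interval.

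A few members in the shell had a difference of the same sign in every mouse of a time without passing the threshold. With 4 or 5 mice 1 sign throughout can arise by chance, and so can groups of values that do not overlap. The share of all genes with either pattern was not counted, here or below. Isg15 at 1 h had normalised counts of 132.4, 290.4, 357, 75.9 and 99.3 in loaded limbs and of 252, 319.9, 546, 107.3 and 123 in the control limbs of the same mice. The loaded limb was the lower one in 5 of 5 mice, while the values of the limbs overlapped (log2 difference -0.50, adjusted p = 1 by limma, 5 mice). Bst2 at 1 h had 63.4, 69.9, 91.5, 63.8 and 33.1 in loaded limbs, against 102.4, 120.2, 104.8, 72.8 and 44.6 in control limbs. It too was lower in 5 of 5 mice with overlapping groups (-0.45). Ifi47, a GTPase gene, had 20.8, 21.2, 15.5 and 11.1 in loaded limbs at 3 h and 27.9, 41.4, 18.9 and 26.1 in control limbs, lower in 4 of 4 mice (-0.69, adjusted p = 0.983 by limma).

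The lowest difference in the shell was that of Irf1 at 24 h and rested on 1 mouse. Its normalised counts were 140.3, 144, 15.7 and 275 in loaded limbs, against 234, 205, 189.6 and 174 in control limbs, a log2 difference of -1.02 that was -0.19 without mouse 3. The loaded limb was higher in mouse 4. Ifi35, an interferon-induced leucine zipper gene, averaged 13.4 ± 5.48 in loaded and 23.4 ± 3.24 in control shells at 7d (SD, n = 4), lower in 4 of 4 mice (-0.87, adjusted p = 0.571 by limma).

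**Figure D2:**
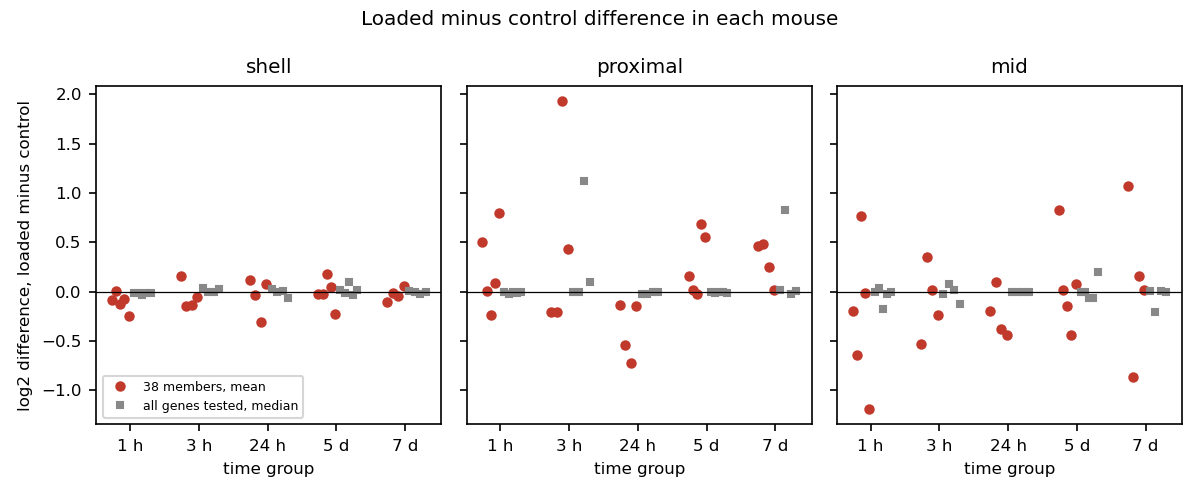
Mean log2 difference, loaded minus control, over the 38 members in each mouse (red circles), beside the median over all 13031 genes in the same mouse (grey squares), by segment (panels) and time (horizontal axis). Shell values lie between -0.30 and 0.18, and the highest of the proximal diaphysis, 1.93, is that of mouse 3 at 3 h, whose all-gene median was 1.12.

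In the diaphysis the differences were larger and so was their spread. Half-widths of the 95% interval had medians over members of 1.20 to 1.34 for the proximal diaphysis and 1.67 to 1.87 for the mid-diaphysis, against 0.63 to 0.70 for the shell, and in the mid-diaphysis no member had an interval within 1 log2 unit of 0 at any time. Members with a positive difference in the proximal diaphysis numbered 27 of 38 at 1 h, 29 at 3 h, 7 at 24 h, 32 at 5d and 21 at 7d, with medians of 0.20, 0.49, -0.39, 0.28 and 0.05. The medians over all genes were -0.01, 0.34, -0.04, 0.04 and 0.29 there. At 3 h the member mean in single mice was -0.20, -0.21, 1.93 and 0.43, and the 1.93 came from mouse 3, whose control library held few genes.

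Several of the larger diaphyseal differences rested on the libraries that stood apart. Bst2 at 3 h in the proximal diaphysis had 29.6, 43.7, 46.7 and 29.1 in loaded limbs, against 25.9, 37.7, 3.37 and 11.2 in control limbs, a log2 difference of 1.29, which was 0.57 without the 7 libraries and their pairs. Isg20, an exonuclease that degrades viral RNA, had 9.30, 11.6, 16.98 and 19.4 in loaded limbs there, against 22.6, 22.7, 124.8 and 20.02 in control limbs (-1.24, and -0.72 without the 7). Loaded limbs were below control limbs in 4 of 4 mice and the groups did not overlap, and the 124.8 was that of mouse 3.

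At 7d in the proximal diaphysis 7 members had an unadjusted p under 0.05 (18.4%), against 16% of all genes. Gbp2, a guanylate-binding protein, had 2.09, 4.78, 22.99 and 23.7 in loaded limbs, against 29.8, 65.8, 32.9 and 33.1 in control limbs. Every loaded value lay below every control value (-1.95, adjusted p = 0.192 by limma, n = 4, and -1.43 without the 7). The share of all genes separated in this way was not counted. Oasl2, of the oligoadenylate synthetase family, had 50.2, 116.7, 75.9 and 27.1 in loaded limbs, against 38.4, 0.577, 28.96 and 41.3 in control limbs. Its log2 difference of 1.84 was 0.38 without the 7 libraries. Ifi44, an antiviral effector, had 4.18, 39.2, 9.96 and 8.46 in loaded limbs and 0, 0, 5.26 and 0 in control limbs, higher in 4 of 4 mice at values of few reads (adjusted p = 0.175 by limma).

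Ifih1, which encodes MDA5, a sensor of double-stranded RNA, had the smallest unadjusted p of the members in any single segment (0.000472 by limma), in the mid-diaphysis at 7d, though Ifi44 above had the smaller adjusted p. It had 24.8, 44.6, 67.1 and 35.4 in loaded limbs, against 10.0, 12.9, 0.836 and 0 in control limbs, where the counts were 26, 24, 1 and 0 reads. All loaded values lay above all control values, with a log2 difference of 3.33 ± 0.82 (SE, 95% interval 1.64 to 5.03, n = 4) and an adjusted p of 0.355 by limma. The control at 0 was the library of mouse 4 that stood apart, and without the 7 libraries the difference was 2.72. By edgeR the difference was 2.76 (adjusted p = 0.269). A single limma fit of all libraries with 1 spread for all segments gave an adjusted p of 0.00174 for it, in a comparison where that fit called 332 genes.

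The shell of the same mice showed no such difference in Ifih1. There it had 18.2, 19.1, 6.54 and 39.0 in loaded limbs, against 19.1, 17.02, 30.5 and 42.4 in control limbs (-0.52), and the limbs overlapped. In the average over segments its difference at 7d was 1.27 ± 0.31 (adjusted p = 0.114 by limma), higher in 4 of 4 mice, and 0.89 without the 7 libraries. Without mouse 3 of 7d this average passed by limma (1.47, adjusted p = 0.0481). Over the 22 fits that left out a mouse its adjusted p by limma ran up to 0.377. Ifi35 also passed without mouse 3 (1.15, adjusted p = 0.0495 by limma), while with all mice it had 0.61 (adjusted p = 0.434). The share of all genes called without mouse 3 is not given here.

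At 5d in the mid-diaphysis the differences of the members ranged between -1.90 and 2.33. Ifitm3 had 413, 251, 840.2, 821 and 633 in loaded limbs, against 210.3, 391, 299.7, 248 and 209 in control limbs, a log2 difference of 1.03 that was 0.61 without the 4 libraries rich in mesothelial-type markers. Isg15 had 73.3, 107.5, 28.97, 50.8 and 61.1 in loaded limbs, against 127, 134, 52.7, 239 and 264 in control limbs. It was lower in 5 of 5 mice (-1.25, and -0.65 without those 4). Igtp, an interferon gamma-induced GTPase gene, had 62.2, 46.6, 110.1, 15.3 and 16.2 in loaded limbs and 18.1, 27.3, 8.10, 8.25 and 13.3 in control limbs (1.44, adjusted p = 0.667 by limma, and 2.03 without those 4), higher in 5 of 5 mice. Loaded libraries of mice 4 and 5 here are among the 4, and the part of those tissues in the values was not tested.

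Tests of whether the response differed between times called 0 members by limma in each segment and in the average. At an unadjusted p under 0.05 there were 0 members in the shell, 2 in the proximal diaphysis, 1 in the mid-diaphysis and 2 in the average. The shares of all genes there were 3.35%, 4.57%, 4.34% and 6.15%. After adjustment 0.0153% of all genes were called in the average and 0 in the segments. The test of whether the response differed between segments also called 0 members by limma, with 0.00767% of all genes called. At an unadjusted p under 0.05 it gave 0 members, beside 4.52% of all genes. edgeR was not run for these 2 tests.

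Of 69 other genes of the pathway (ligands, receptors, kinases, further sensors, inhibitors and further targets), 57 were read well enough to test. In the 15 comparisons limma and edgeR called 0 of them, and 40 of 855 tests (4.68%) had an unadjusted p under 0.05 by limma.

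Along the control tibia Bst2 was the member higher in shells than mid-diaphyses by both limma and edgeR. In control limbs 1 of 38 members (2.63%) was called between shell and mid-diaphysis, where 4.97% of all genes were, and 1 between shell and proximal diaphysis, where 3.56% of all genes were. Tetherin, the product of Bst2, holds budding viruses at the cell surface and is also made by plasmacytoid dendritic cells and bone marrow stroma. Its normalised count ranged between 19.7 and 161 in control shells (median 53.7), between 3.37 and 109.2 in control proximal diaphyses (median 32.7) and between 4.48 and 82.4 in control mid-diaphyses (median 31.5). The ranges overlap, but within a mouse the shell was the higher in 20 of 22 mice against the mid-diaphysis and in 19 of 22 against the proximal diaphysis.

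**Figure D3:**
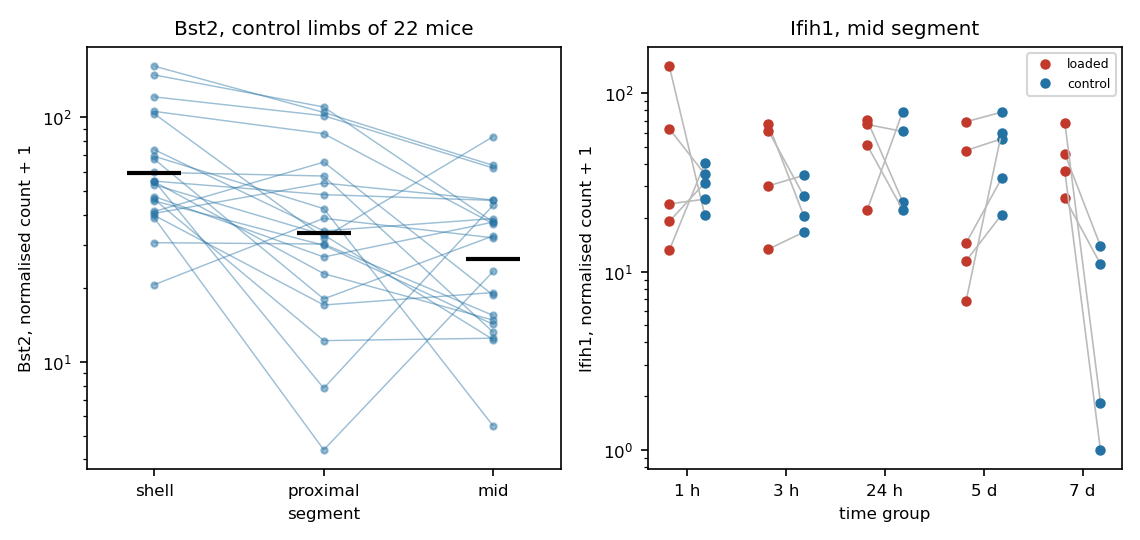
Left, Bst2 in the control limbs of 22 mice (normalised count + 1, log axis), each line a mouse and the black bars the means on the log scale by segment. Right, Ifih1 in the mid-diaphysis by time, with loaded and control limbs of a mouse joined. Bst2 averages 66.2 for the shell and 31.2 for the mid-diaphysis, and at 7d the loaded values of Ifih1 (24.8 to 67.1) lie above the control values (0 to 12.9).

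The log2 difference of Bst2, shell minus mid-diaphysis, was 1.16 ± 0.23 (SE, 95% interval 0.68 to 1.63, n = 22), with means of 66.2 ± 37.7 for shell and 31.2 ± 19.9 for mid-diaphysis (SD) and an adjusted p of 0.00463 by limma. It passed without each mouse in turn, with adjusted p of 0.00152 to 0.0104, and without the 7 libraries (0.94, adjusted p = 0.0488). Against the proximal diaphysis, with a mean of 43.5 ± 31.4, the difference was 0.81 ± 0.23 (adjusted p = 0.0463 by limma). This call did not hold in 18 of the 22 fits that left out a mouse (adjusted p up to 0.0796), nor by edgeR (adjusted p = 0.0769), nor without the pairing by mouse as a replicate block (adjusted p = 0.249). Cell type markers differed along the bone as well. Medians of the summed markers over control shells, proximal and mid-diaphyses were 1938, 1314 and 963 for 7 macrophage markers, 440.4, 318 and 255 for 5 endothelial markers, and 90.6, 111.7 and 91.9 for 4 markers of plasmacytoid dendritic cells. Osteoclast markers fell as well (9021, 6401 and 4073). Osteocyte markers rose in the same order (962, 1523 and 1759), and monocyte markers had 315, 296 and 362. The part of these cells in the Bst2 difference was not tested, and in bulk tissue fewer cells of a type and less RNA per cell cannot be told apart. The sum of the 4 plasmacytoid dendritic markers was highest in the library where skeletal muscle markers were highest (2350 and 167830). That sum need not follow those cells alone.

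Most members had a positive difference between shell and mid-diaphysis in limma, 32 of 38 with a median of 0.20, and so did 66.1% of all genes, with a median of 0.17. By edgeR 21 of 38 were positive and 45.2% of all genes, so the split differed between the tools. Both used the same size factors, and they differ in model and log scale. edgeR called Bst2 and also Gbp2 (5.36% of all genes called), with a difference of -0.97 that was -0.57 by limma (adjusted p = 0.416). Between proximal and mid-diaphysis limma called 0 members, with 0.0537% of all genes called. At an unadjusted p under 0.05 it had 1 member, beside 7.97% of all genes. edgeR called 1 member, with 1.27% of all genes called. This was Isg20, with 64.8 ± 53.9 for the proximal and 162 ± 265 for the mid-diaphysis (-0.77 by edgeR, adjusted p = 0.0477; -0.70 by limma, adjusted p = 0.498, n = 22). Of the 57 other pathway genes tested, limma called 1 between shell and mid-diaphysis, beside 4.97% of all genes. This was Lgals3bp, which was higher in the shell.

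Control limbs of different times differed in many of the members. Between the 5 times 12 of 38 members (31.6%) were called by limma, on the mean of the 3 control segments of each mouse, against 21.7% of all genes. They were 7 effectors (Isg20, Ifi35, Ifitm3, Isg15, Rsad2, Ifit1 and Ifi44), 2 GTPases (Ifi47 and Gbp3), the transcription factor gene Irf8, the sensor gene Ifih1 and Psmb9, a subunit gene of the immunoproteasome. Each library's title opens with a number that differs between times, and what it stands for is not given in the sources used here. Mice of 3 h and 24 h had numbers 2 to 88, mice 1 to 3 of 5d 98 to 144, mouse 1 of 1 h 326 to 332, the other mice of 1 h and 5d 442 to 572, and mice of 7d 622 to 912. The numbers of 7d overlap none of the other times, and those of 3 h and 24 h none of 1 h or 5d, so there time and whatever goes with the numbers cannot be told apart. Within 1 h and within 5d, mice of 1 time have numbers in different ranges. Within numbers 2 to 144 (3 h, 24 h and 3 mice of 5d) limma called 0 members and 0.0153% of all genes. At an unadjusted p under 0.05 there were 6 members (15.8%), beside 18.2% of all genes. Within 442 to 636 (4 mice of 1 h, 2 of 5d and 2 of 7d) limma called 0 members and 0 genes in all. There 10 members (26.3%) had an unadjusted p under 0.05, beside 14.5% of all genes. edgeR was not run within either range.

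**Figure D4:**
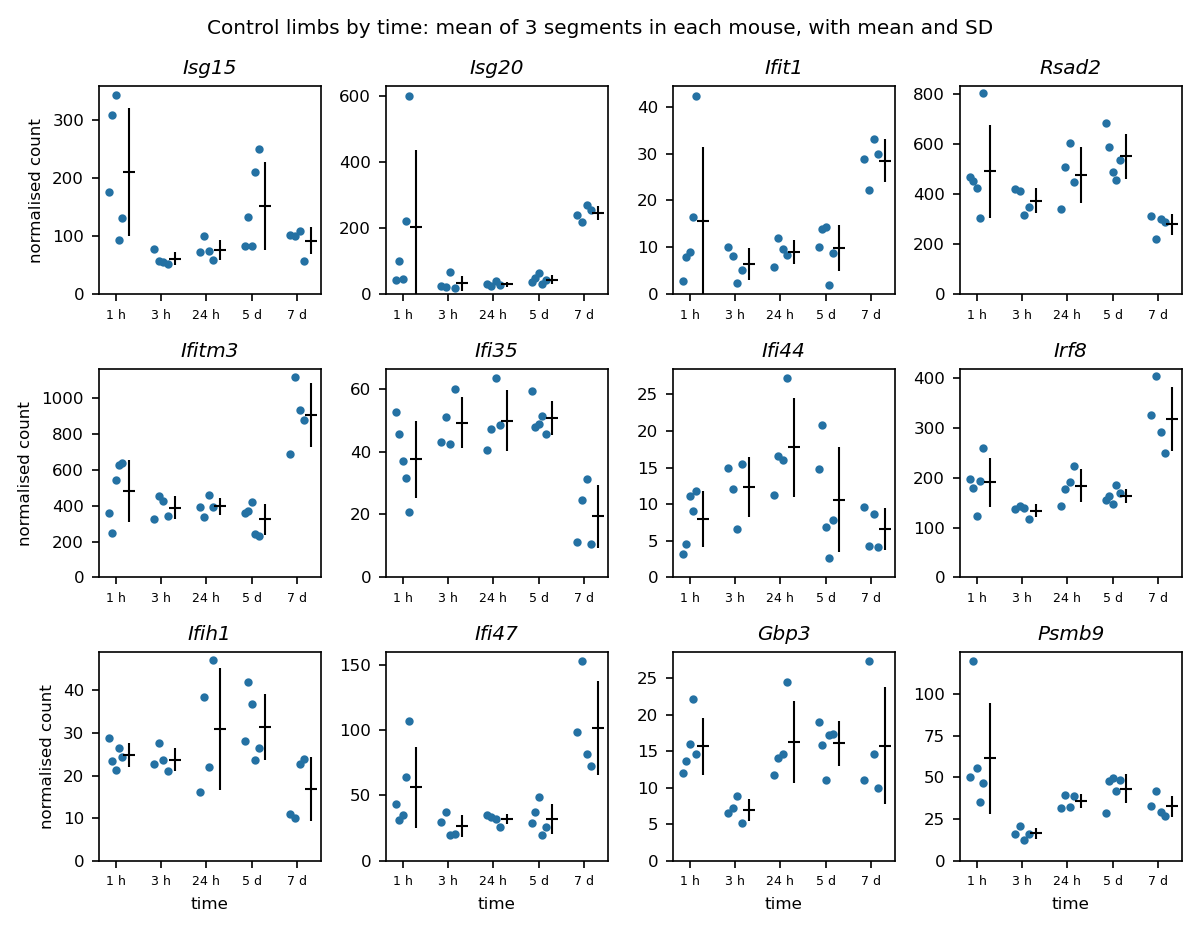
Mean normalised count of the 3 control segments in each mouse (points), with mean and SD, by time, for the 12 members called between times. Isg20, Ifi47, Ifitm3 and Irf8 are highest at 7d, Ifi35 and Rsad2 lowest there, and Isg15 is highest at 1 h with 211 ± 110.3.

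Isg20 had the smallest p, with control means of 202 ± 233 at 1 h, 32.9 ± 23.03 at 3 h, 30.2 ± 7.53 at 24 h, 44.1 ± 12.3 at 5d and 246 ± 21.9 at 7d (SD over 4 or 5 mice, adjusted p = 0.000194 by limma). At 7d its 4 mice lay between 219 and 270.0, above every mouse of 3 h, 24 h and 5d, while at 1 h the mice ran between 41.3 and 598. Ifi47 had 56.2 ± 31.2 at 1 h, 26.8 ± 8.38 at 3 h, 31.6 ± 3.89 at 24 h, 32.1 ± 11.3 at 5d and 101.4 ± 36.02 at 7d (adjusted p = 0.00135 by limma). Ifitm3 had 482 ± 173, 389 ± 62.6, 395 ± 49.6, 324 ± 85.3 and 905 ± 176 at the same times (adjusted p = 0.00149). Irf8 had 191 ± 48.6, 134 ± 12.1, 185 ± 32.7, 164 ± 14.4 and 318 ± 65.3 (adjusted p = 0.0117).

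Other members ran the other way at 7d, so the 12 did not move as 1 group. Ifi35 had 37.5 ± 12.3 at 1 h, 49.1 ± 8.12 at 3 h, 49.8 ± 9.76 at 24 h, 50.5 ± 5.36 at 5d and 19.4 ± 10.1 at 7d (SD, adjusted p = 0.000583 by limma). Rsad2 had 490.2 ± 185, 373 ± 51.1, 475 ± 111.1, 551 ± 89.8 and 279 ± 41.7 (adjusted p = 0.0115), and Ifih1 24.9 ± 2.81, 23.7 ± 2.76, 31.0 ± 14.3, 31.4 ± 7.74 and 16.8 ± 7.44 (adjusted p = 0.00638). Isg15 had its own order, with 211 ± 110.3, 60.9 ± 11.3, 76.7 ± 17.004, 152 ± 75.8 and 92.05 ± 23.6 (adjusted p = 0.00532). Psmb9 was lowest at 3 h, with 16.3 ± 3.33 against 32.5 ± 6.45 at 7d and 61.3 ± 33.3 at 1 h (adjusted p = 0.00627). Without the 7 libraries 6 of the 12 calls were left, those of Isg20, Ifi35, Ifi47, Ifitm3, Psmb9 and Irf8. The share of all genes called in that fit is not given here.

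The last comparison asked whether the 6 libraries of a mouse, 3 from each limb, share a level that sets it apart from other mice of its time. The test sets differences between mice against the spread of libraries within a mouse. By limma 7 of 38 members (18.4%) were called, against 6.1% of all genes, and by edgeR 10, the same 7 with Ifi47, Zbp1 and Oas3, against 10.9% of all genes. Isg20 ranked 6 among the 13031 genes (F = 8.82, adjusted p = 3.17e-10 by limma), followed by Isg15 (adjusted p = 0.00199), Oasl2 (0.00353), Ifit1 (0.0127), Bst2 (0.0152), Ifitm3 (0.0279) and Iigp1 (0.0389), a GTPase gene. Isg20, Isg15 and Oasl2 passed without each mouse in turn. Ifit1 was lost without mouse 1 or mouse 5 of 1 h, Bst2 without mouse 5 of 1 h or mouse 5 of 5d, Ifitm3 without any of 5 mice and Iigp1 without any of 8. Without mouse 5 of 1 h 3 calls were left, and among mice with 1 time and 1 run of title numbers 2 were left, Isg20 and Oasl2, against 3.08% of all genes. A run there ends at a gap of over 100 in the numbers, so mice 2 and 3 (442 to 456) and mice 4 and 5 (542 to 572) of 1 h fall in 1 run, and the number is not held fixed.

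The difference was also tested in each limb alone. On the loaded libraries alone limma called Isg20 (adjusted p = 0.000851), with 0.276% of all genes called, and on the control libraries alone it called Isg20 (0.00665) and Oasl2 (0.0327), with 0.576% of all genes called. In mouse 5 of 1 h Isg20 had 333, 1051 and 231 in the loaded shell, proximal and mid-diaphysis, and 422, 150.1 and 1221 in the control limb. In mouse 4 of 1 h it had 218, 208 and 364 in the loaded and 309, 149 and 209 in the control limb. The 12 values overlap those of single libraries elsewhere, since the highest among mice with title numbers 2 to 512 was 247.

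**Figure D5:**
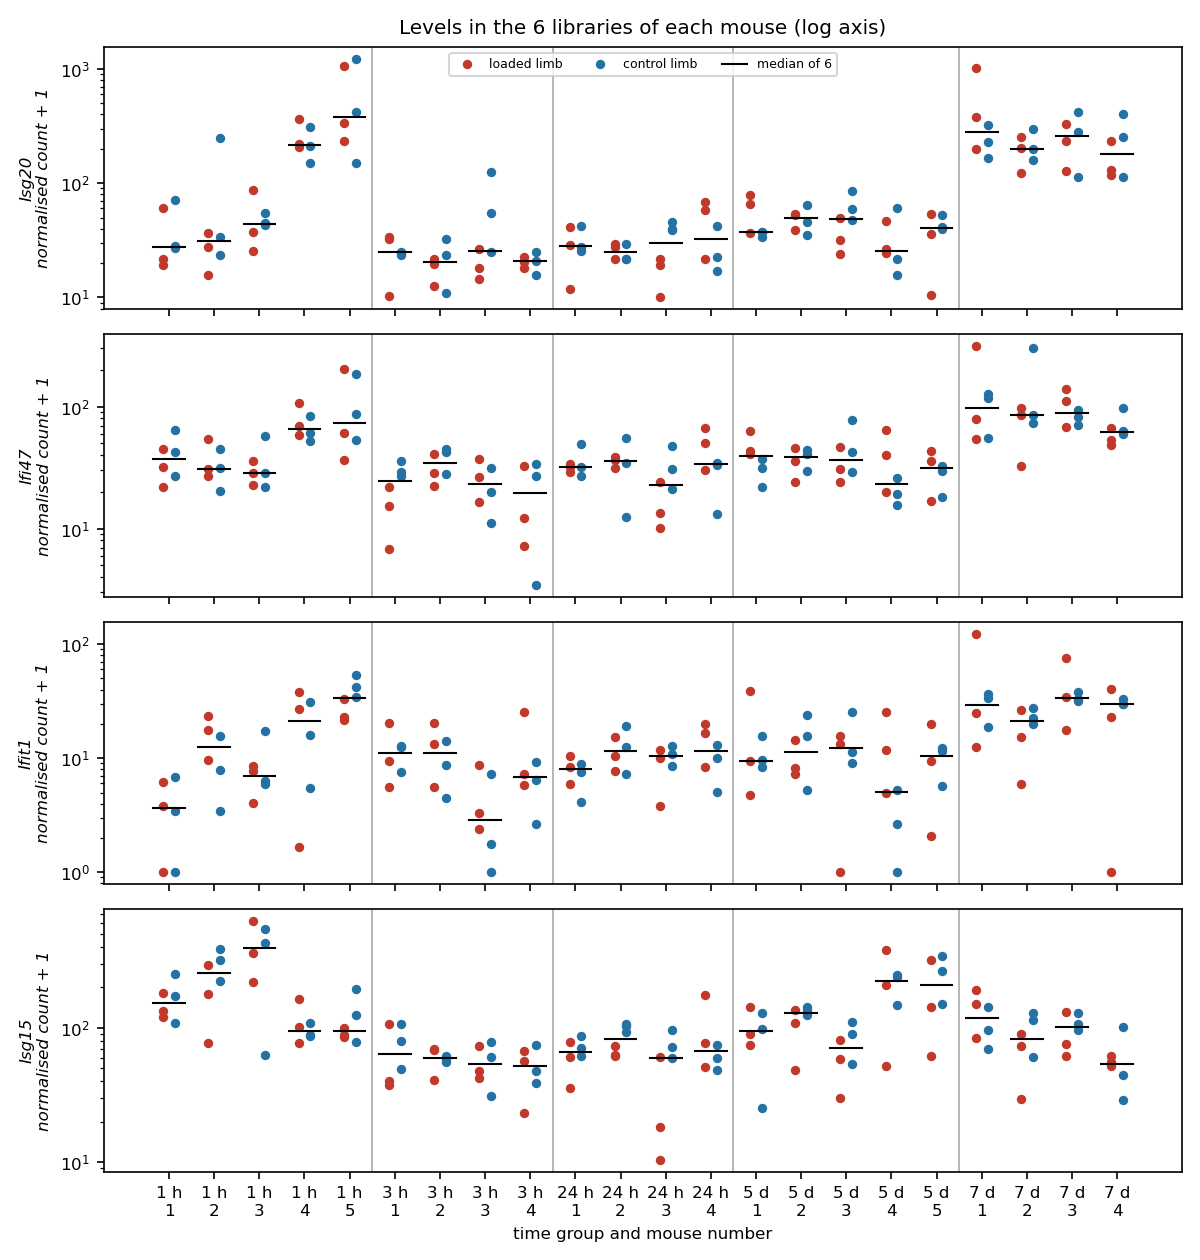
Normalised count + 1 (log axis) of Isg20, Ifi47, Ifit1 and Isg15 in the 6 libraries of each of the 22 mice, by time and mouse number, with loaded limbs in red, control limbs in blue and the median of the 6 as a bar. Isg20 is high in both limbs of mice 4 and 5 of 1 h and of the 4 mice of 7d, and Isg15 in mice 1 to 3 of 1 h and mice 4 and 5 of 5d.

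Mouse by mouse, the means of Isg20 over 6 libraries were 37.04, 63.3, 47.8, 243 and 568 in mice 1 to 5 of 1 h, 19.1 to 43.01 at 3 h, 24.2 to 37.2 at 24 h, 31.5 to 48.7 at 5d, and 384, 205, 249.9 and 207 at 7d. Mouse 4 of 1 h lay within the range of the mice of 7d, and mouse 5 of 1 h above it. These 2 mice and those of 7d are the 6 mice with title numbers 542 to 912. Their means of 205 to 568 compare with 19.1 to 63.3 in the 16 mice with numbers 2 to 512. This split of the numbers was noticed after the values were seen and is a description with no test. Differences between animals and whatever goes with the numbers cannot be told apart here. Ifi47, Oasl2, Ifitm3, Irf8 and Ifit1 were also higher in each of these 6 mice than in any of the 16, and so were the immune gene B2m and Jak1. Among the other genes set against the title numbers, Isg15, Bst2, Iigp1, Zbp1, Rsad2, Siglech and Psme1 were not. The share of all genes that sets these 6 mice apart was not counted, so the pattern is not shown to be particular to the members. Ifi47 had 37.7, 33.7, 31.6, 70.8 and 103 at 1 h, 18.3 to 40.8 in the 13 mice of 3 h, 24 h and 5d, and 63.9 to 123 at 7d. Oasl2 had 7.64, 7.26, 18.7, 44.7 and 43.4 at 1 h, 10.5 to 29.4 at 3 h, 24 h and 5d, and 38.7 to 76.9 at 7d. For both genes these 2 mice lay above the other 3 of 1 h.

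Ifitm3 and Irf8, members of higher level, and Ifit1, of lower level, had a like order. Ifitm3 had 284, 319, 427, 615 and 681 at 1 h, 283 to 454 at 3 h, 24 h and 5d, and 742 to 922 at 7d, and Irf8 had 177, 159, 152, 225 and 272 at 1 h, 131.3 to 204 at 3 h, 24 h and 5d, and 265 to 345 at 7d. Ifit1 had 2.72, 11.9, 7.33, 18.7 and 33.5 at 1 h, 3.07 to 13.4 at 3 h, 24 h and 5d, and 18.5 to 40.6 at 7d. B2m, the light chain of MHC class I, was called between mice as well (adjusted p = 5.26e-07 by limma), with 1669, 1294, 1118, 3919 and 3022 at 1 h, 1091 to 2059 at 3 h, 24 h and 5d, and 3320.3 to 4648 at 7d. Some marker sums of immune cells were high in the same mice and others were not. For 5 B lymphoid markers they were 149, 90.4, 74.9, 233 and 371 at 1 h, 109.7 to 151 at 3 h, 24 h and 5d, and 182 to 277 at 7d, and for 4 monocyte markers 278, 219, 175, 441 and 623, then 204 to 396, and 422 to 612. For 4 markers of plasmacytoid dendritic cells they overlapped, with 127, 83.96, 163, 279.8 and 244 at 1 h, 50.9 to 454 at 3 h, 24 h and 5d, and 98.9 to 404 at 7d. Their defining gene, Siglech, had 22.4, 16.5, 16.6, 36.7 and 38.4 at 1 h, 15.97 to 39.6 at 3 h, 24 h and 5d, and 32.4 to 47.8 at 7d. The sum of the 4 markers was highest, at 2350, in the control mid-diaphysis of mouse 4 at 3 h. In that library 5 skeletal muscle markers were highest as well (167830). Over that mouse Siglech averaged 20.9 and the sum 454. The sum need not follow plasmacytoid dendritic cells alone, and the part of muscle in it was not tested. Macrophage marker sums had medians of 1557 in the 6 mice and 1555 in the 16, and neutrophil sums ran between 23228 and 48056 in the 6 and between 17805 and 42008 in the 16. Osteoblast marker sums were 9058 to 18045 at 1 h and 17912 to 20308 at 7d. The part of these cells in the levels of the members was not tested.

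Isg15 and Bst2 set other mice apart. Isg15 had means of 160.4, 245, 371, 104 and 111.1 in mice 1 to 5 of 1 h, 92.1, 114.8, 69.8, 211 and 212 in mice 1 to 5 of 5d, and 50.4 to 121.3 in the 12 mice of 3 h, 24 h and 7d. Bst2 had 68.6, 76.6, 94.8, 49.4 and 26.3 at 1 h, 32.9, 37.6, 31.0, 89.5 and 103 at 5d, and 27.0 to 40.5 at 3 h, 24 h and 7d. Mice 1 to 3 of 1 h and mice 4 and 5 of 5d were the highest for both genes, which is the reverse of Isg20 within 1 h. They are also the 5 mice with title numbers 326 to 512, and the other 17 had means of 50.4 to 121.3 for Isg15 and 26.3 to 49.4 for Bst2. The share of all genes that sets these 5 mice apart was not counted. Of these 5 mice, 4 hold the mid-diaphysis libraries rich in mesothelial-type markers. Without those 4 libraries the calls of Isg15 and Bst2 between mice remained by limma.

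Rsad2, the effector with the second highest median, and the feedback inhibitor gene Usp18 were not called between mice. Rsad2 had means of 251 to 682 at 7d and 332 to 426 at 3 h, and the 682 was mouse 1, in which the loaded mid-diaphysis had 2457 and the other 5 libraries 212 to 437. Of the 57 other pathway genes tested, 3 (5.26%) were called between mice by limma, against 6.1% of all genes. These were B2m, Jak1 and Psme1, a proteasome activator gene. By edgeR 5 were called, against 10.9% of all genes. Between times in control limbs 9 (15.8%) were called, against 21.7% of all genes. They were the receptor genes Ifnar1 and Ifngr1, the sensing genes Tlr3 and Tmem173, the inhibitor gene Socs3, and Eif2ak2, Gbp9, B2m and Psme2 among other targets.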

How the data were processed

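The submitters' processing notes name STAR, FastQC, DESeq2 and the build mm10, without their roles or versions. The table the authors deposited holds a signal, whole reads divided by a factor per library as its value steps show, and multiplying back gave whole reads for 100% of values (tolerance 0.02), on which edgeR was run as an alternative. Library totals were 290066 to 5404933 reads. The 38 members and all lists were chosen with earlier results of these data known. In R 4.3.3, limma 3.58.1 (trend, robust) was fitted to log2(value + 1) of the 13031 genes that reached 10 in 4 or more libraries, Benjamini-Hochberg adjusted over all of them with a threshold of 0.05. Fold changes on this scale understate low genes. Loading was tested on 1 difference per mouse, a fit per segment. Limbs and segments are paired because the titles number the mouse and the protocol gives 6 samples per mouse. The check of pairing, a correlation of same-mouse loaded and control deviations, had medians of 0.172 (shell), 0.0484 (proximal diaphysis) and -0.00351 (mid-diaphysis). Control segments were tested on differences within the mouse, control times and mice by F tests. Pairs of libraries with identical values numbered 0. Left out were 27 entries with date-like or repeated names, and 4897 genes were at 0 throughout. Values in full go to members past the threshold, to some of the up to 3 highest and 3 lowest differences of a comparison among members with a mean of at least 20, and to the 6 smallest p between mice. Ifi44 and Ifi35 under loading lie outside this rule and were chosen after their values were seen. The scripts used limma and edgeR 4.0.16 (quasi-likelihood). The limma fits of the main comparisons were tested on simulated data, and the edgeR fits were not. Promoters are RefSeq's.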

Additional observations from a re-analysis of the deposited data

Results flagged for a closer look

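Rsad2, which encodes viperin, averaged 682 over the 6 libraries of mouse 1 of 7d, against 295 in the next mouse of that time (n = 4). The gap to the next mouse was 0.898 of the whole range of the 4. Of the 6 libraries the loaded mid-diaphysis had 2457 and the control mid-diaphysis 212. Such a gap was looked for in 95 groups of mice, on the levels of 15 members and on the mean loading differences over the members. This was the 1 found. Chance gives a gap in about 1 in 20 groups, so 1 among 95 is no more than chance would give.

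In the proximal diaphysis the mean log2 difference over the 38 members, loaded minus control, was lower at 24 h than at 7d by 0.693 (-0.693), with every mouse of 24 h below 0 (-0.14, -0.54, -0.73 and -0.15) and every mouse of 7d above 0 (0.46, 0.48, 0.25 and 0.02). The 0.48 is that of mouse 2, whose control library stood apart. In that mouse the median over the members was -0.55 and the median over all genes 0.83, and without it the difference was -0.633. In the average over segments the same difference between 24 h and 5d was -0.328 (-0.388 without the 7 libraries and their pairs). The mice of each time again lay on opposite sides of 0, at -0.468 to -0.0707 for 24 h and 0.00121 to 0.323 for 5d. Both patterns came from a search of all pairs of times in each segment and the average, and of all pairs of segments at each time. The differences of these means between times were not tested. Tested gene by gene with limma, the response differed between times in 0 members. At an unadjusted p under 0.05 there were 2 in the proximal diaphysis and 2 in the average, beside 4.57% and 6.15% of all genes.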

How the results depend on the processing

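Under the alternatives (pseudocounts of 0.5 and 5, filters, upper-quartile scaling, libraries or mice left out, edgeR), counts of members called stayed within 1.5 times of limma's, with these exceptions. Under loading, 1 fit of all libraries with the mouse as a replicate block called 1 member at 7d in the mid-diaphysis (Ifih1), and leaving out a mouse gave 0 to 2 in the average at 7d. Between control shell and mid-diaphysis the count was 1, and it was 0 with a filter at a mean of 50, which left 11 members to test and Bst2 out, and 2 with upper-quartile scaling or edgeR, with 1 to 2 when a mouse was left out. Between shell and proximal diaphysis it was 1, and 0 with a pseudocount of 0.5, with no replicate block (the pairing by mouse dropped) or by edgeR, 2 with no filter, 3 with a pseudocount of 5 or without 7 libraries, 1 with the filter at 50 (Isg15, with Bst2 not tested), and 0 to 2 when a mouse was left out. Between proximal and mid-diaphysis edgeR called 1 against 0. Between control times the 12 became 5 with the filter at 50, 6 without 7 libraries and 0 within either run of title numbers, and ranged over 9 to 12 without a mouse and 9 to 14 under the other alternatives. Between mice of 1 time the 7 became 4 with the filter at 50, 2 within a run of title numbers, 1 in loaded and 2 in control limbs alone, 3 to 8 without a mouse and 7 to 10 under the rest. Dropping the replicate block changed no other count of members by over 1.5 times. Settings without 7 libraries, within runs and by limb were chosen after seeing the data, and where not stated the cause was not tested. No direction of a called value reversed. Depth limits the 11 members with a median under 10 and the diaphysis, where intervals are wide. In tests on 1 difference or 1 mean per mouse the replicates are mice, and p-values measure the spread between them. In the test between mice of 1 time the libraries of a mouse are the replicates. Its p-values set differences between mice against the spread of libraries within a mouse.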
